A study of Mus musculus with 241 samples.

Results

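Bcl11b+ DN2a cells and Flt3+ ETPs, which stand at opposite ends of the sorted order of early thymocytes in this series, were compared by bulk RNA sequencing. The members were chosen by their sort labels, 3 Bcl11b+ DN2a libraries and 2 Flt3+ ETP libraries, which are 5 of the 12 bulk libraries and of 241 samples in all. Both populations came from the thymus of C57BL/6 mice of the genotype Bcl11byfp/yfp, in which a yellow fluorescent protein (YFP) reports Bcl11b, and both were gated as Lin-, 7AAD-, CD44+ and Kit+. Bcl11b+ DN2a cells were further gated as CD25+ and YFP+, and Flt3+ ETPs as CD25- and Flt3+. The remaining bulk libraries, used here for the shared estimate of spread and for levels in between, were Flt3- ETPs, Bcl11b- DN2a cells and undivided ETPs of the same genotype. Single cells of wild-type mice were profiled with 10x droplets in 2 libraries, which served for a description of the same genes. The labels give neither the age of the mice nor how many stood behind a library.

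Early T-cell progenitors (ETPs) are the most immature cells of the thymus that give rise to T cells, and the Flt3-bearing ones among them are the closest to the blood-borne progenitors that seed the organ. Under Notch signals from the thymic stroma they acquire CD25 and become DN2a cells, while genes of the stem and progenitor program, such as those for PU.1 and Lmo2, are shut down and T-lineage regulators such as TCF1 and GATA3 accumulate. Bcl11b, a zinc finger transcription factor, comes on last and marks commitment to the T lineage. The comparison asks what separates cells after that step from the least mature thymic progenitors.

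Values were FPKM (reads on a gene model per kilobase of exon, scaled to library size). The 5 compared libraries had between 28386417 and 38537039 reads on their gene models, as recovered from the FPKM. They fall into library-number series. Replicate 1 of each population belongs to the first NEBNext series, replicate 2 of Bcl11b+ DN2a to a second NEBNext series, and replicate 3 of Bcl11b+ DN2a and replicate 2 of Flt3+ ETP to a set made with the SMART-Seq kit. Spearman correlations across genes within a population were 0.965 for the pair from the same kit and 0.809 to 0.844 between kits, so the kit was a term in every main fit. Replicate 1 of Flt3+ ETP stood apart from replicate 2 in genes of later cells. It held 5.76 FPKM of Bcl11b, 17.5 FPKM of Il2ra and 52.5 FPKM of Cd3g, against 0.061, 1.02 and 5.42 FPKM in replicate 2. The first series differed likewise in other populations. Bcl11b was at 4.54 FPKM in its Flt3- ETP and 6.11 FPKM in its Bcl11b- DN2a, against 0.028 and 0.596 FPKM in the SMART-Seq set. Second-series levels were 3.08 FPKM in Bcl11b- DN2a and 0.105 and 0.167 FPKM in undivided ETPs. Il2ra in Flt3- ETP was at 18.4 FPKM in the first series and 4.74 FPKM in the SMART-Seq set. First-series libraries of both compared populations also held the fibroblast collagen transcript Col1a1, at 5.34 FPKM in Bcl11b+ DN2a and 18.2 FPKM in Flt3+ ETP. It was at most at 0.009 FPKM in the other compared libraries. The labels tie no library to a mouse of its own, and the p-values therefore cover only how far these libraries differ from each other, a spread that may be technical.

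The genes behind the gates were examined as a check of the sorts and not as findings. Flt3, encoding the cytokine receptor of the progenitor gate (chromosome 5, 147330742 to 147400489, minus strand, mm10), was at 0.123, 0.263 and 0.382 FPKM in Bcl11b+ DN2a and at 78.5 and 61.9 FPKM in Flt3+ ETP. Il2ra, encoding CD25 (chromosome 2, 11642792 to 11693194, plus strand), was at 275, 301 and 220.1 FPKM in Bcl11b+ DN2a and at 17.5 and 1.02 FPKM in Flt3+ ETP. Bcl11b was at 41.02, 44.3 and 16.1 FPKM in Bcl11b+ DN2a and at 5.76 and 0.061 FPKM in Flt3+ ETP. For these genes the groups did not overlap. Kit, which both gates require, was at 54.4, 71.1 and 21.7 FPKM in Bcl11b+ DN2a and at 56.7 and 33.6 FPKM in Flt3+ ETP, and the groups overlapped (change of -0.20 ± 0.23 on the log2(FPKM + 1) scale, SE, limma adjusted p = 0.676). Cd44, also required by both, fell by 1.67 ± 0.18 (adjusted p = 0.000103), with 10.3, 12.7 and 8.22 FPKM in Bcl11b+ DN2a and 38.1 and 28.9 FPKM in Flt3+ ETP.

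Across all genes the falls outnumbered the rises. Of 12112 genes tested with limma, 1370 (11.3%) were called, that is, had an adjusted p (Benjamini-Hochberg) under 0.05. Of these, 413 were higher in Bcl11b+ DN2a (3.41% of genes tested) and 957 were lower (7.9%), so 30.1% of calls were rises. The excess of falls depends on the scaling. Rises made up 42.8% of calls after quantile normalization, 45.4% after median-ratio scaling and 49.6% with DESeq2, which called 1134 genes higher and 1151 lower on recovered reads. The median change of all genes tested was -0.03 on the log2 scale, and 0.09 with DESeq2. Beyond a change of 2 on the log2(FPKM + 1) scale, 51 genes were higher and 91 lower. Without replicate 1 of Flt3+ ETP 676 genes were called, without replicate 2 of Flt3+ ETP 795, and without replicate 3 of Bcl11b+ DN2a 873.

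Among genes with a mean of at least 3 over the compared libraries on the log2(FPKM + 1) scale, the largest rises outside the gate genes were in transcripts for a growth factor, a mast cell protease and a T-cell receptor adaptor. Fgf3, a growth factor gene of the fibroblast growth factor family (chromosome 7, 144838612 to 144843348, plus strand), was at 49.95, 37.5 and 38.5 FPKM in Bcl11b+ DN2a and at 1.10 and 0.104 FPKM in Flt3+ ETP. The groups were far apart, and the rise on the log2(FPKM + 1) scale was 4.72 ± 0.25 (SE, 3 against 2 libraries, adjusted p = 9.92e-07). Cpa3, encoding the carboxypeptidase stored in mast cell granules (chromosome 3, 20215616 to 20242181, minus strand), was at 176.3, 271.2 and 893.4 FPKM in Bcl11b+ DN2a and at 8.67 and 32.3 FPKM in Flt3+ ETP. The SMART-Seq libraries were the higher in both populations, and the groups did not overlap (4.62 ± 0.19, adjusted p = 5.40e-07, the smallest of the named genes). Trat1, encoding an adaptor of the T-cell receptor complex, was at 50.1, 79.4 and 148.1 FPKM in Bcl11b+ DN2a and at 5.75 and 5.16 FPKM in Flt3+ ETP (3.89 ± 0.37, adjusted p = 4.07e-05). Fam169b was at 49.5, 51.3 and 36.7 FPKM in Bcl11b+ DN2a, against 7.07 and 0.994 FPKM in Flt3+ ETP (3.34 ± 0.37). Trat1 and Fam169b were higher still without replicate 1 of Flt3+ ETP, at 4.65 and 3.94, and Trat1 was at 3.22 without replicate 2.

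The next rises were in genes of different kinds. Scin, encoding the actin-severing protein scinderin, rose by 2.87 ± 0.15, with 112.459, 124.994 and 152.602 FPKM in Bcl11b+ DN2a and 14.9 and 21.8 FPKM in Flt3+ ETP. The tubulin gene Tuba8 rose by 2.85 ± 0.14, the phospholipid scramblase gene Plscr1 by 2.84 ± 0.31 and the annexin gene Anxa2 by 2.60 ± 0.29. Ccdc109b, encoding a subunit of the mitochondrial calcium uniporter, rose by 2.86 ± 0.58, but its call was lost without replicate 2 of Flt3+ ETP (1.97, adjusted p = 0.118). Leaving out replicate 1 of Flt3+ ETP gave 3.63 for Plscr1, 3.26 for Anxa2 and 3.88 for Ccdc109b, without replicate 2 Plscr1 was at 2.17, and without replicate 3 of Bcl11b+ DN2a Ccdc109b was at 2.04. Of the 15 largest rises, 4 are symbols of only 2 adult beta-globin positions and are not independent, each with 2.75. Hbb-b2 and Hbb-bt have the same coordinates (chromosome 7, 103812524 to 103813923), and Hbb-bs and Hbb-b1 overlap almost wholly. The 2 positions hold similar genes, so the split of reads between them is uncertain. Hbb-bt was at 224.9, 81.31 and 218.7 FPKM in Bcl11b+ DN2a and at 25.8 and 20.6 FPKM in Flt3+ ETP. The alpha-globin gene Hba-a1 stood at 1.68, 0.186 and 0.162 FPKM in Bcl11b+ DN2a and at 5.04 and 0 FPKM in Flt3+ ETP.

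**Figure D1:**
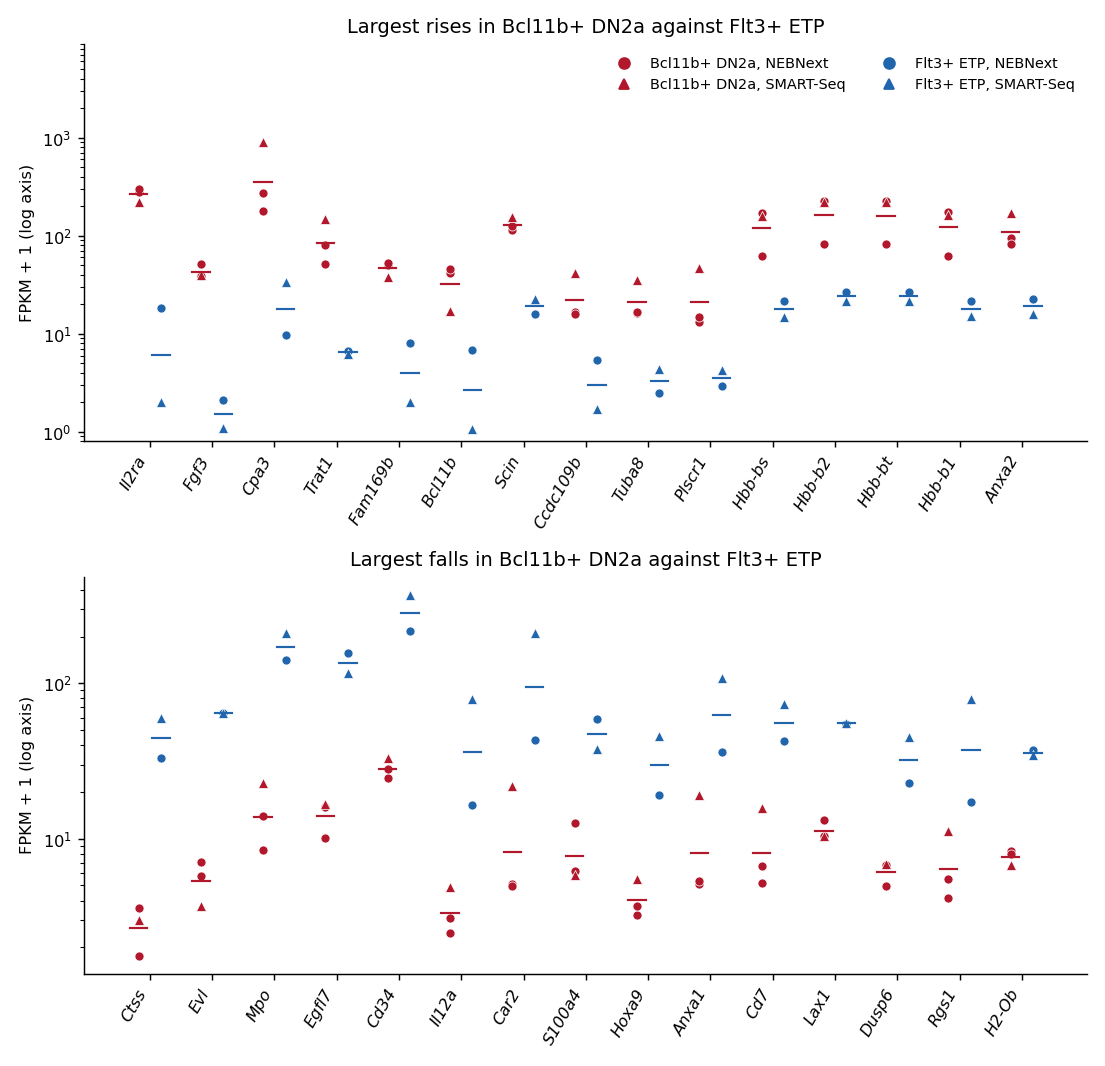
FPKM + 1 on a log axis of the 15 largest rises (upper panel) and the 15 largest falls (lower panel) in each compared library, Bcl11b+ DN2a in red and Flt3+ ETP in blue, with circles for NEBNext and triangles for SMART-Seq libraries and short bars for the mean on the log scale. For each gene shown the red and blue points do not overlap, while kits differ within a population, as for Cpa3 (176.3, 271.2 and 893.4 FPKM in Bcl11b+ DN2a, the last of them SMART-Seq).

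Myeloid, stem cell and antigen presentation transcripts were among the largest falls at the same minimum level. Ctss, encoding the lysosomal protease cathepsin S (chromosome 3, 95526786 to 95556405, plus strand), was at 2.56, 0.763 and 2.01 FPKM in Bcl11b+ DN2a and at 31.99 and 58.7 FPKM in Flt3+ ETP. It fell by 3.99 ± 0.31 on the log2(FPKM + 1) scale (adjusted p = 1.01e-05). Mpo, encoding the neutrophil granule enzyme myeloperoxidase, was at 12.9, 7.40 and 21.8 FPKM in Bcl11b+ DN2a and at 139.3 and 209.1 FPKM in Flt3+ ETP (-3.52 ± 0.23, adjusted p = 3.56e-06). Cd34, encoding a sialomucin of blood stem and progenitor cells (chromosome 1, 194938821 to 194961292, plus strand), was at 23.41, 27.02 and 32.11 FPKM in Bcl11b+ DN2a and at 215.3 and 372 FPKM in Flt3+ ETP (-3.25 ± 0.18, adjusted p = 1.75e-06). In all of these the groups were separate. Only genes that moved alike in the first series and the SMART-Seq set were ranked, so their agreement between kits was set by the choice. Evl, encoding an actin regulator of the Ena/VASP family, fell by 3.63 ± 0.21, and Egfl7, encoding a secreted protein known from endothelium, by 3.28 ± 0.24. Il12a, encoding a subunit of an interleukin, fell by 3.18 ± 0.29 and the carbonic anhydrase gene Car2 by 3.17 ± 0.19. The calcium-binding protein gene S100a4 (-2.75 ± 0.35), the annexin gene Anxa1 (-2.66 ± 0.14), the surface antigen gene Cd7 (-2.58 ± 0.20) and the adaptor gene Lax1 (-2.28 ± 0.20) followed. The ERK phosphatase gene Dusp6 fell by 2.27 ± 0.24, the G-protein signalling regulator gene Rgs1 by 2.27 ± 0.25 and H2-Ob, encoding a chain of the class II antigen loading regulator, changed by -2.24 ± 0.14.

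The first NEBNext series and the SMART-Seq set each hold 1 library of both populations, so the difference could be read inside each set, with no test. All 1370 called genes had the same sign in both sets, against 65.2% of all genes tested, and the calls come from a fit that holds these libraries. The sizes were not alike for every gene. Il2ra differed by 3.90 in the first series and by 6.77 in the SMART-Seq set, and Bcl11b by 2.64 and 4.01. Tcf7 differed by 2.17 and 2.21. Levels of 909 called genes did not overlap between the 3 and the 2 libraries. Over all genes tested 1654 (13.7%) did not, 4.04% being higher and 9.62% lower in Bcl11b+ DN2a.

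**Figure D2:**
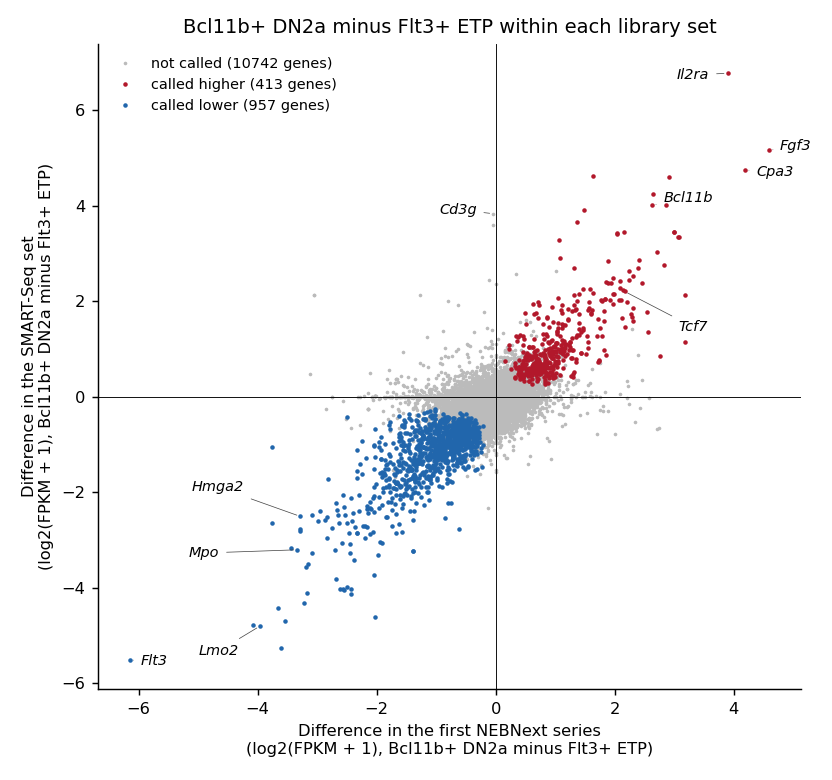
Difference of log2(FPKM + 1), Bcl11b+ DN2a minus Flt3+ ETP, in the first NEBNext series (x axis) and in the SMART-Seq set (y axis), 1 library of each population per set, for the 12112 genes tested. Called rises (red, 413) lie in the upper right and called falls (blue, 957) in the lower left, while Cd3g lies near 0 in the first series (-0.04) and at 3.83 in the SMART-Seq set.

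T-lineage transcription regulators rose in part. Of the 18 regulators listed, 17 passed the filter on low FPKM, and 7 rose and 1 fell. The share called was 47.1%, beside 11.3% of all genes tested. The median change was 0.16 over the 17, beside -0.03 over all genes tested. Tcf7, encoding the Notch-induced factor TCF1 (chromosome 11, 52252283 to 52282595, minus strand), was at 311, 309 and 144.2 FPKM in Bcl11b+ DN2a and at 68.5 and 30.4 FPKM in Flt3+ ETP. The groups did not overlap, and Tcf7 rose by 2.19 ± 0.11 on the log2(FPKM + 1) scale (adjusted p = 9.30e-07). Tcf12, encoding the E protein HEB, was at 32.9, 43.9 and 23.9 FPKM in Bcl11b+ DN2a and at 16.3 and 7.45 FPKM in Flt3+ ETP (1.34 ± 0.18, adjusted p = 0.000507). Gata3, encoding a zinc finger factor needed from the ETP stage on, was at 17.8, 18.4 and 13.6 FPKM in Bcl11b+ DN2a and at 8.34 and 5.62 FPKM in Flt3+ ETP (1.13 ± 0.22, adjusted p = 0.00509). Myb, encoding a factor of progenitor growth, rose by 0.99 ± 0.20, Ets1 by 0.78 ± 0.14 and Runx1 by 0.72 ± 0.21, and for Ets1 and Runx1 the kits differed so much that the groups overlapped. The gate gene Bcl11b was the seventh. Sox13, a factor linked to the gamma-delta lineage, fell by 0.65 ± 0.17.

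The smaller of these changes rest on few libraries. With replicate 1 of Flt3+ ETP left out, the calls of Ets1 (0.72, adjusted p = 0.0744), Myb (0.82, adjusted p = 0.15), Runx1 (0.86, adjusted p = 0.155) and Sox13 (-0.87, adjusted p = 0.051) were lost, which left 4 rises. Without replicate 2 of Flt3+ ETP those of Gata3 (0.92, adjusted p = 0.0847), Runx1 (0.60, adjusted p = 0.262) and Sox13 (-0.47, adjusted p = 0.242) were lost. Runx1 also lost its call without each Bcl11b+ DN2a library in turn (adjusted p = 0.06 to 0.0984), and Sox13 without replicate 3 (adjusted p = 0.143). Regulators that did not pass the test were Gfi1 (0.37), Ikzf1 (0.16), Tcf3 (0.10), Tox (-0.03), Runx3 (-0.25), Lef1 (-0.46), Id3 (-0.55), Satb1 (-0.56) and Ets2 (-0.59).

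Regulators of stem and progenitor cells were lower in Bcl11b+ DN2a for the greater part. Of 20 listed, 19 passed the filter, 13 fell and 1, Nfe2, rose, with a median change of -1.04. The share called was 73.7%, beside 11.3% of all genes tested. Lmo2, encoding a LIM-domain bridge of stem cell transcription complexes (chromosome 2, 103970287 to 103981878, plus strand), was at 1.16, 1.00 and 1.52 FPKM in Bcl11b+ DN2a and at 32.6 and 69.4 FPKM in Flt3+ ETP, a fall by 4.41 ± 0.25 (adjusted p = 1.75e-06). Hmga2, encoding a chromatin protein of fetal and self-renewing cells (chromosome 10, 120361268 to 120476469, minus strand), was at 0.126, 0.083 and 0.229 FPKM in Bcl11b+ DN2a and at 9.96 and 5.97 FPKM in Flt3+ ETP (-2.95 ± 0.21, adjusted p = 4.99e-06). Both were under 2 FPKM in each Bcl11b+ DN2a library. Hmga2, Meis1, Gata2 and Cebpa were under 1 FPKM in each of these and could hardly be called higher. The homeobox gene Meis1 fell by 2.74 ± 0.23 and its partner Hoxa9 by 2.72 ± 0.18. Hoxa9 was at 2.21, 2.71 and 4.52 FPKM in Bcl11b+ DN2a and at 18.2 and 45.01 FPKM in Flt3+ ETP. Mef2c, a factor of lymphoid progenitors, fell by 2.44 ± 0.25, Irf8, a factor of myeloid and dendritic cells, by 1.96 ± 0.21, Bcl11a by 1.63 ± 0.15 and Hhex by 1.26 ± 0.21. Spi1, encoding PU.1, was at 25.8, 13.2 and 19.1 FPKM in Bcl11b+ DN2a and at 62.5 and 60.1 FPKM in Flt3+ ETP (-1.67 ± 0.23, adjusted p = 0.000521), so a part of its level was still present.

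Not every progenitor regulator was called lower. Lyl1, a basic helix-loop-helix factor, was at 70.1, 52.1 and 17.6 FPKM in Bcl11b+ DN2a and at 60.9 and 16.8 FPKM in Flt3+ ETP, split by kit in both (0.03 ± 0.16, adjusted p = 0.938). Erg was at 31.5, 32.7 and 2.52 FPKM in Bcl11b+ DN2a and at 36.1 and 3.38 FPKM in Flt3+ ETP (-0.19 ± 0.19, adjusted p = 0.615). Tal1, Gfi1b and Spib did not pass the test either (-0.29, 0.32 and 0.33). Of the smaller falls, Hoxa7 (-0.85), Gata2 (-0.77) and Mycn (-0.65) each lost the call when 1 of 4 compared libraries was left out, and Cebpa (-1.04) when 1 of 3 was. For example, without replicate 2 of Flt3+ ETP the adjusted p was 0.135 for Hoxa7, 0.291 for Gata2 and 0.26 for Mycn, and without replicate 1 of Flt3+ ETP it was 0.499 for Cebpa. Nfe2 rose by 0.51 ± 0.14, with overlapping groups, and its call was lost without replicate 1 of Flt3+ ETP (0.31, adjusted p = 0.504), without replicate 1 of Bcl11b+ DN2a (adjusted p = 0.0963) and without replicate 3 (adjusted p = 0.0737).

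**Figure D3:**
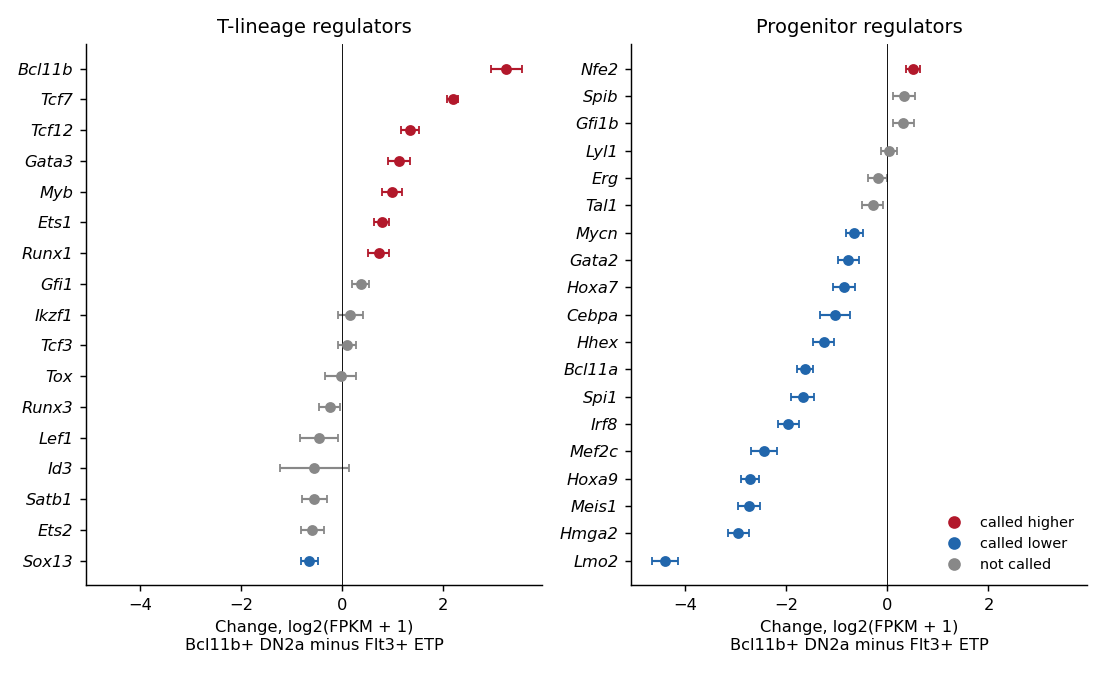
Change on the log2(FPKM + 1) scale, Bcl11b+ DN2a minus Flt3+ ETP, of the 17 T-lineage regulators (left) and the 19 progenitor regulators (right) that passed the filter, with bars of 1 SE. Red points were called higher, blue points lower and grey points neither. The changes run between 3.25 for Bcl11b and -0.65 for Sox13 on the left, and between 0.51 for Nfe2 and -4.41 for Lmo2 on the right.

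The promoters of the leading regulators, the 2 rises and 2 falls of smallest p, gate genes left out, among those with an entry in the RefSeq table of mm10 (GRCm38.p6) promoters, are printed because these genes lead the changes of the regulator lists. Each holds 250 bases before and 50 bases after the annotated start, which in each case equals the start of the gene model used for counting, and all 4 lie on the minus strand. They are chr11:52282546-52282845, chr9:72111770-72112069, chr6:52227321-52227620 and chr10:120476420-120476719. Capitals mark matches, on either strand, to 5 motifs: GAGGAAGT for PU.1, TGTGGTT for RUNX factors, CAGCTG for E proteins, AGATAA for GATA factors and CTTTGA for TCF1 and LEF1, none of which overlapped in these windows.
Tcf7: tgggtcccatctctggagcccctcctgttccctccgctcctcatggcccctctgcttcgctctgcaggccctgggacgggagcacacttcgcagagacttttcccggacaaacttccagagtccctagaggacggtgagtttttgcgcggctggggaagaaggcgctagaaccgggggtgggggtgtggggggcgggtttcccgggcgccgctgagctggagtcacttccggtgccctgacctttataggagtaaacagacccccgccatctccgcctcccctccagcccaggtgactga
Tcf12: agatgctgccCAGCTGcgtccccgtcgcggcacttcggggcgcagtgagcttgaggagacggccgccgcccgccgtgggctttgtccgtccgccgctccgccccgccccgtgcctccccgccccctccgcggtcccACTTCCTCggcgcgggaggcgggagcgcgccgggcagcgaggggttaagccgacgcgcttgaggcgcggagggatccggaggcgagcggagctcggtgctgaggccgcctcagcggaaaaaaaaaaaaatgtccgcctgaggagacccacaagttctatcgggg
Hoxa9: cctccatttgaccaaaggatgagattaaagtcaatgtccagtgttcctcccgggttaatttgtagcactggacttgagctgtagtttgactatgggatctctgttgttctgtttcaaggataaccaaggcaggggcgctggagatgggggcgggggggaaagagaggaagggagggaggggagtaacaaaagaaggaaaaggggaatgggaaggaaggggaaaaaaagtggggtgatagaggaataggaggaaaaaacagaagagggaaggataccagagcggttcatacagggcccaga
Hmga2: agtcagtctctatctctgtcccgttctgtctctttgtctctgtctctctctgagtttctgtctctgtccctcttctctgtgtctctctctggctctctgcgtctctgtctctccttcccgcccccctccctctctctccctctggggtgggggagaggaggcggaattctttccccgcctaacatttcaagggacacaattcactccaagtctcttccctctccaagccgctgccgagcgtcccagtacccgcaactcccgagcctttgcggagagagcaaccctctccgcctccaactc
Matches were found in Tcf12, to the E protein motif at -240 and to the PU.1 motif, on the reverse strand, at -114 relative to the start. The other 3 windows hold none of these letters, which says nothing about whether the factors bind there. Of 27025 RefSeq promoters of the same length, 16.2% hold the E protein motif, 3.29% the PU.1 motif, 5.32% the RUNX motif, 11.3% the GATA motif and 16.2% the TCF1 and LEF1 motif.

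In the main fit most T-cell receptor signalling genes rose in Bcl11b+ DN2a, although the receptor itself is not yet assembled at this stage. Of 20 listed, 19 passed the filter, 11 rose and 3 fell, with a median change of 0.70. The share called was 73.7%, beside 11.3% of all genes tested. The number of rises moved with the processing, to 8 with the compared populations alone and to 1 with no kit term. Nck2, encoding an adaptor that links the receptor to the cytoskeleton, was at 39.8, 39.3 and 20.1 FPKM in Bcl11b+ DN2a and at 8.504 and 4.144 FPKM in Flt3+ ETP (2.06 ± 0.15, adjusted p = 5.17e-06). Themis, a signalling protein of thymocyte selection, was at 5.70, 13.3 and 6.77 FPKM in Bcl11b+ DN2a and at 2.17 and 0.04 FPKM in Flt3+ ETP (2.17 ± 0.34, adjusted p = 0.00132). Skap1, an adaptor of integrin activation, was at 26.6, 25.1 and 55.4 FPKM in Bcl11b+ DN2a and at 9.93 and 14.9 FPKM in Flt3+ ETP (1.51 ± 0.25, adjusted p = 0.00172). Trat1, given above, is also of this list. The co-stimulatory receptor gene Cd27 fell by 1.27 ± 0.13, with 51.5, 43.1 and 59.7 FPKM in Bcl11b+ DN2a and 117.4 and 145.2 FPKM in Flt3+ ETP. Of the list, 7 rose and 1 fell without replicate 1 of Flt3+ ETP, and 1 fell likewise without replicate 2 or without replicate 3 of Bcl11b+ DN2a.

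Within the receptor complex the data were divided. Of 8 genes, Cd247, encoding the zeta chain, rose by 1.75 ± 0.21 (34.3, 28.3 and 19.1 FPKM in Bcl11b+ DN2a, 11.8 and 3.21 FPKM in Flt3+ ETP, adjusted p = 0.000212). Dntt, encoding terminal transferase, was the other call, a fall by 0.94 ± 0.20 (adjusted p = 0.00838), which was lost without replicate 2 of Flt3+ ETP (adjusted p = 0.131) or without replicate 3 of Bcl11b+ DN2a (adjusted p = 0.0662). Dntt was abundant on both sides, with 279.6, 347 and 209.1 FPKM in Bcl11b+ DN2a and 488 and 531 FPKM in Flt3+ ETP. The CD3 chain genes did not pass the test, and their levels differed widely between the Flt3+ ETP libraries. Cd3g was at 51.1, 34.5 and 90.6 FPKM in Bcl11b+ DN2a and at 52.5 and 5.42 FPKM in Flt3+ ETP (1.35 ± 1.17, adjusted p = 0.556). Cd3e was at 14.2, 7.30 and 13.3 FPKM in Bcl11b+ DN2a and at 15.4 and 1.61 FPKM in Flt3+ ETP, and Cd3d was at 5.00, 1.66 and 4.77 FPKM in Bcl11b+ DN2a and at 10.1 and 1.21 FPKM in Flt3+ ETP. Replicate 1 of Flt3+ ETP was within or above the Bcl11b+ DN2a range for all 3 genes and replicate 2 below it. Without replicate 1 of Flt3+ ETP the changes were 2.52 for Cd3g, 1.49 for Cd3e and 0.44 for Cd3d, still not called (adjusted p = 0.573, 0.681 and 0.936), and without replicate 2 they were 0.34, -0.06 and -1.01. Without replicate 3 of Bcl11b+ DN2a they were 0.05, -0.29 and -1.26. Of the Flt3+ ETP libraries, the first-series one also held more Bcl11b and Col1a1 transcripts, and their part in these values was not tested.

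Receptors for cytokines changed in both directions. Of 20 listed, 19 passed the filter, 3 rose and 7 fell, with a median change of -0.53. The gate genes Il2ra and Flt3 are among these counts. Of the falls, Flt3, Csf1r, Csf2rb, Csf3r, Il6ra and Il18r1 were under 1 FPKM in each Bcl11b+ DN2a library. Such genes passed the filter through other libraries and could hardly be called higher. The share called was 52.6%, beside 11.3% of all genes tested. Il7r, encoding the receptor chain for the interleukin that sustains early thymocytes (chromosome 15, 9506159 to 9529876, minus strand), was at 35.2, 59.2 and 49.9 FPKM in Bcl11b+ DN2a and at 9.03 and 8.66 FPKM in Flt3+ ETP (2.29 ± 0.21, adjusted p = 3.55e-05). Csf1r, encoding the macrophage growth factor receptor, was at 0.266, 0 and 0.012 FPKM in Bcl11b+ DN2a and at 16.03 and 5.35 FPKM in Flt3+ ETP (-3.41 ± 0.27, adjusted p = 1.32e-05). The groups of both genes were separate. Csf2rb, the shared chain of myeloid cytokine receptors, fell by 2.17 ± 0.22 and Il18r1 by 1.60 ± 0.18.

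Homing and adhesion genes had the highest share of calls among the lists, 88.9% beside 11.3% of all genes tested. There were 5 rises and 11 falls among the 18 of 20 that passed the filter, with a median change of -0.80. Of the falls, Ccr9, Ccr2 and S1pr1 were under 1 FPKM in each Bcl11b+ DN2a library and could hardly be called higher. Ccr9, encoding a chemokine receptor of thymus-seeding cells, was at 0.423, 0.686 and 0.389 FPKM in Bcl11b+ DN2a and at 11.9 and 15.5 FPKM in Flt3+ ETP (-3.29 ± 0.23, adjusted p = 4.93e-06). Ccr7, another chemokine receptor of seeding cells, was at 0.709, 0.335 and 1.33 FPKM in Bcl11b+ DN2a and at 3.97 and 8.61 FPKM in Flt3+ ETP (-1.87 ± 0.20). Ly6a, encoding the stem cell antigen Sca-1, fell by 1.81 ± 0.17. Dpp4, encoding the surface peptidase CD26, rose by 2.15 ± 0.20, with 61.7, 96.1 and 69.5 FPKM in Bcl11b+ DN2a and 14.9 and 17.2 FPKM in Flt3+ ETP. Of this list, 3 rose without replicate 1 of Flt3+ ETP.

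Of the genes of DNA replication a minority rose. All 24 S-phase genes listed passed the filter, 8 rose, none fell and 16 did not pass the test, with a median change of 0.42. The rises were 33.3% of the list, beside 3.41% of all genes tested. Rrm2, encoding a ribonucleotide reductase subunit, was at 92.9, 108.1 and 308 FPKM in Bcl11b+ DN2a and at 45.6 and 160.7 FPKM in Flt3+ ETP, so that the groups overlapped across kits (1.07 ± 0.15, adjusted p = 0.000668). Pcna, encoding the replication clamp, was at 473, 454 and 526 FPKM in Bcl11b+ DN2a and at 278 and 353 FPKM in Flt3+ ETP, with no overlap (0.68 ± 0.11, adjusted p = 0.00215). This count moved with the processing. It was 14 after median-ratio scaling, 16 with DESeq2, 3 with NEBNext libraries alone, 0 with no kit term, and 1 without replicate 1 of Flt3+ ETP, where Rrm2 kept its call and that of Pcna was lost (0.65, adjusted p = 0.0522). Without replicate 2 of Flt3+ ETP it was 3. None of 24 genes of G2 and mitosis was called by limma with the kit term or by edgeR with it, 1 had an unadjusted p under 0.05, and the median change was 0.15. DESeq2 called 2 higher, limma with the library-number series as a block 1 higher and 1 lower, and edgeR with that block 2 higher and 1 lower.

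Interferon-stimulated genes were lower in Bcl11b+ DN2a. All 16 listed passed the filter, 10 fell and none rose, with a median change of -1.07. The falls were 62.5% of the list, beside 7.9% of all genes tested. Irf7, a transcription factor of the interferon response, was at 6.27, 6.71 and 5.74 FPKM in Bcl11b+ DN2a and at 23.9 and 25.6 FPKM in Flt3+ ETP (-1.84 ± 0.15, adjusted p = 1.27e-05). Oasl2, of the oligoadenylate synthetase family (-1.88 ± 0.22), and Ifi27l2a (-2.24 ± 0.33) fell as well. In these 3 genes the groups did not overlap, whereas Usp18 (-1.05 ± 0.15) and Rtp4 (-1.26 ± 0.20) overlapped across kits. With NEBNext libraries alone 3 of the list fell.

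Of 11 Bcl2 family genes that passed the filter, Bcl2, the survival factor, rose by 1.41 ± 0.16 (13.3, 14.45 and 19.9 FPKM in Bcl11b+ DN2a, 5.63 and 5.21 FPKM in Flt3+ ETP, adjusted p = 0.000132). Bbc3, encoding the death factor PUMA, fell by 1.23 ± 0.21, a call lost without replicate 1 of Flt3+ ETP (-0.89, adjusted p = 0.087). Of 17 glycolysis genes 4 fell, among them the glucose transporter gene Slc2a3 (-1.33 ± 0.16) and the enolase gene Eno1 (-1.15 ± 0.19), and without replicate 1 of Flt3+ ETP 1 did, Eno1 being lost (adjusted p = 0.0557). Without replicate 2 of Flt3+ ETP, and likewise without replicate 2 of Bcl11b+ DN2a, 2 of them fell, Slc2a1 and Pkm being lost. The shares called were 18.2% of the Bcl2 family and 23.5% of the glycolysis genes, beside 11.3% of all genes tested. Of 10 Notch pathway genes that passed, 1 was called, a share near that 11.3%. The feedback inhibitor gene Nrarp fell by 0.66 ± 0.15, a call lost without either Flt3+ ETP library (adjusted p = 0.0712 and 0.145). The receptor gene Notch1 (-0.10 ± 0.19) and the target gene Hes1 (-0.05 ± 0.14) did not pass the test. Hes1 was at 35.7, 37.6 and 40.6 FPKM in Bcl11b+ DN2a and at 37.9 and 44.2 FPKM in Flt3+ ETP. Of 17 chromatin regulators 1 was called, a share of 5.88% beside 11.3% of all genes tested. Dnmt3b, a DNA methyltransferase gene, fell by 0.79 ± 0.21, which was lost without 4 of the 5 compared libraries in turn (adjusted p = 0.0589 to 0.25).

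Lists of markers for other cells within reach of the gates also differed between the populations. In bulk RNA, fewer cells of a type and less RNA per cell cannot be told apart. Of 19 granulocyte and monocyte markers 16 passed the filter and 12 fell, and their summed level was 29.6 to 79.7 FPKM in Bcl11b+ DN2a and 320 and 434 FPKM in Flt3+ ETP. Cd33 fell by 2.99 ± 0.18, Prtn3, encoding a neutrophil protease, by 2.87 ± 0.30 and Lyz2 by 1.64 ± 0.23. Of these falls, Prtn3, Elane, Csf1r, Csf3r and Cebpa were under 1 FPKM in each Bcl11b+ DN2a library. Such genes pass the filter through other libraries and could hardly be called higher. Of 15 dendritic cell markers 7 passed and 5 fell, which is 71.4% of the 7, beside 7.9% of all genes tested. Sums were 17.2 to 27.7 FPKM in Bcl11b+ DN2a and 58.8 and 79.9 FPKM in Flt3+ ETP. The falls were the class II genes Cd74 (-3.54 ± 0.55), H2-Aa, H2-Ab1 and H2-Eb1 and the chemokine receptor gene Ccr2. Itgax (0.62) and Tcf4 (-0.42) did not pass the test. The other 8 markers, Siglech, Xcr1, Clec9a, Zbtb46 and Batf3 among them, were under 1 FPKM in all 5 compared libraries. Without replicate 1 of Flt3+ ETP Cd74 was at -4.43, and H2-Ab1 (adjusted p = 0.129) and H2-Eb1 (adjusted p = 0.0675) lost their calls. Without replicate 2 Cd74 was at -2.78, and those 2 calls were lost likewise (adjusted p = 0.153 and 0.236). Of the dendritic cell falls, H2-Aa, H2-Eb1 and Ccr2 were likewise under 1 FPKM in each Bcl11b+ DN2a library. Both populations were sorted as Lin-, a gate meant to remove cells of mature lineages. The part that such cells have in the falls of the progenitor and interferon genes was not tested.

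Of 12 erythroid, megakaryocyte and mast cell markers 6 passed the filter, and Cpa3, Hbb-bs and Itga2b rose. These rises were 50.0% of the 6, beside 3.41% of all genes tested. The sum of the 12 markers was 338 to 1060.4 FPKM in Bcl11b+ DN2a and 36.3 and 49.6 FPKM in Flt3+ ETP. Itga2b, encoding a platelet integrin chain, was at 6.31, 5.17 and 2.58 FPKM in Bcl11b+ DN2a and at 0.678 and 0.145 FPKM in Flt3+ ETP (1.76 ± 0.29, adjusted p = 0.00191), a call lost without replicate 1 of Flt3+ ETP (1.27, adjusted p = 0.0748). The mast cell receptor gene Ms4a2 was at 0 in the 3 Bcl11b+ DN2a libraries and at 0 and 0.008 FPKM in Flt3+ ETP. Of 17 natural killer and innate lymphoid markers 9 passed, Fcer1g (1.73 ± 0.17) and Zbtb16 (1.18 ± 0.20) rose and 4 fell, led by Klrd1 (-2.36 ± 0.30). The share called was 66.7%, beside 11.3% of all genes tested. Sums were 142.2 to 595 FPKM in Bcl11b+ DN2a and 271 and 719 FPKM in Flt3+ ETP. Leaving out replicate 1 of Flt3+ ETP, the call of Zbtb16 (adjusted p = 0.0654) was lost and 2 falls were left, and Klrd1 was at -2.96. Of 13 B-cell markers 4 passed, and Pou2af1 rose (1.97 ± 0.27) and Blk fell (-0.94 ± 0.20). These calls were 50.0% of the 4, beside 11.3% of all genes tested. Blk lost its call without replicate 1 of Flt3+ ETP (-0.69, adjusted p = 0.209).

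Of 12 later thymocyte markers 9 passed, with sums of 122.9 to 210.05 FPKM in Bcl11b+ DN2a and 69.4 and 68.8 FPKM in Flt3+ ETP. Trat1, Arpp21 (0.85 ± 0.13) and Cd5 rose, and Cd4 and Cd6 fell, so 55.6% of the 9 were called, beside 11.3% of all genes tested. Cd4 was at 0.127, 0.151 and 0.066 FPKM in Bcl11b+ DN2a and at 2.86 and 0.541 FPKM in Flt3+ ETP. The fit without replicate 1 of Flt3+ ETP lost the calls of Cd4 (adjusted p = 0.184), Cd5 (adjusted p = 0.22) and Cd6 (adjusted p = 0.126). The call of Cd5 was also lost without replicate 2 of Flt3+ ETP (adjusted p = 0.145) and without replicates 1 or 3 of Bcl11b+ DN2a (0.0873 and 0.0939). That of Cd6 was also lost without replicate 2 of Flt3+ ETP (adjusted p = 0.29) and without replicates 2 or 3 of Bcl11b+ DN2a (0.1003 and 0.132). Of 10 stroma markers 4 passed and Pecam1 rose by 0.64 ± 0.18, a call lost when any 1 of the 5 compared libraries was left out (adjusted p = 0.0522 to 0.539). Stroma sums were 21.1 to 49.3 FPKM in Bcl11b+ DN2a and 52.6 and 13.01 FPKM in Flt3+ ETP.

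Levels in the populations between the ends showed at which sort gate a gene differed, as a description with 1 library per population and set. In the first series Tcf7 was at 68.5 FPKM in Flt3+ ETP, 128.7 FPKM in Flt3- ETP, 303 FPKM in Bcl11b- DN2a and 311 FPKM in Bcl11b+ DN2a, so nearly all of its difference lay before the Bcl11b gate. Fgf3 was likewise at 1.10, 3.39, 75.2 and 49.95 FPKM in that order. Bcl2 was at 5.63, 2.69, 5.34 and 13.3 FPKM, so it was high in Bcl11b+ DN2a alone of the 4 first-series libraries, and in the SMART-Seq set it was at 5.21, 3.48, 5.74 and 19.9 FPKM. Skap1 was at 9.93, 4.59, 4.38 and 26.6 FPKM in the first series and lower in both populations in between than at either end. Dntt had its lowest level in Bcl11b- DN2a, with 488, 347, 125.9 and 279.6 FPKM. Irf8 was at 8.69, 9.70, 10.6 and 1.72 FPKM in the first series, and its fall lay at the Bcl11b gate. Mpo had its highest level in Flt3- ETP, with 139.3, 435, 127.2 and 12.9 FPKM.

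A level that moved one way through all 4 populations in both sets was the minority case. It held for 79 of the 413 called rises (19.1%) and for 287 of the 957 called falls (30.0%), beside 3.85% of all genes tested. The lower population in between was below both ends in both sets for 25.4% of the called rises, as in Skap1. The same held for 8.67% of the called falls. It need not be the same population in both sets. Over all genes tested 3757 of 12112 had this pattern, a larger share than among the rises. Because these counts use the libraries that made the calls, they carry no test.

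**Figure D4:**
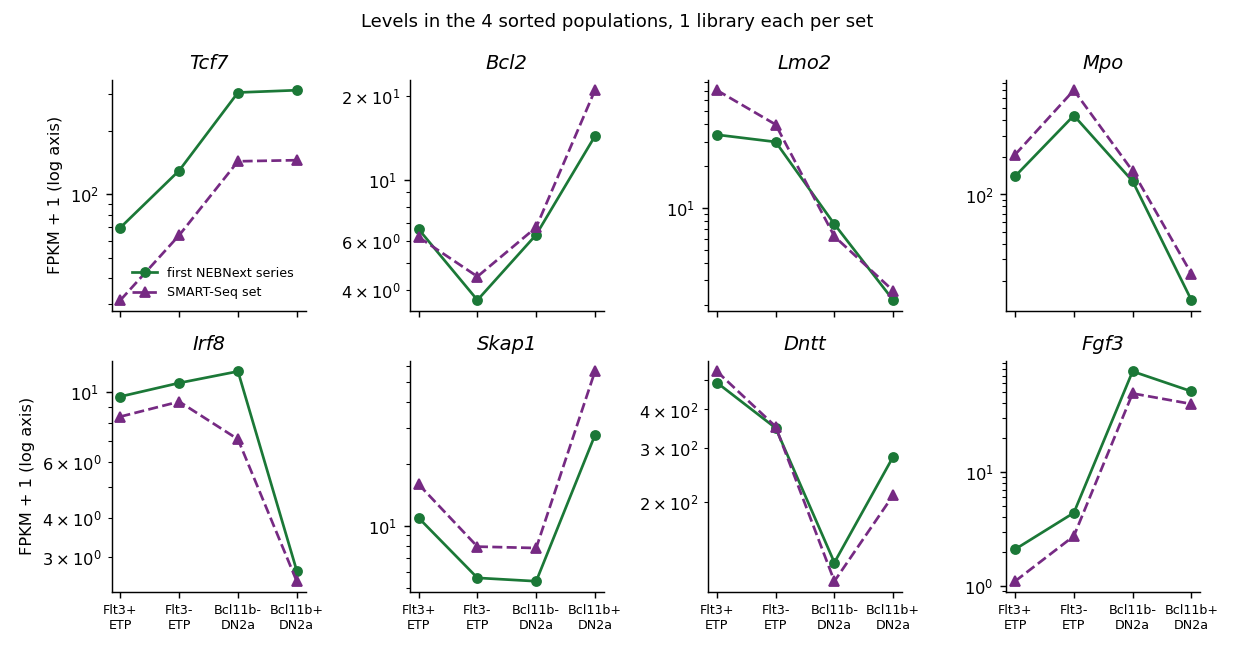
FPKM + 1 on a log axis of 8 named genes in Flt3+ ETP, Flt3- ETP, Bcl11b- DN2a and Bcl11b+ DN2a, with 1 library per population in the first NEBNext series (green circles) and in the SMART-Seq set (purple triangles). Tcf7 differs mostly before Bcl11b- DN2a, Irf8 and Bcl2 mostly between Bcl11b- and Bcl11b+ DN2a, and Skap1 and Dntt are lowest in between.

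The same genes were read in the wild-type 10x libraries, where cells were chosen by transcripts and not by surface proteins. Cells with UMIs (unique molecular identifiers) of both Bcl11b and Il2ra numbered 1197 and 1933, and cells with a Flt3 UMI and none of Il2ra or Bcl11b numbered 443 and 624, of 4878 and 8434 cells kept. Their median depths were 9002 and 6771 UMIs for the Bcl11b and Il2ra cells and 9873 and 6709.5 UMIs for the Flt3 cells. The 2 libraries share 57 barcodes. Summed UMIs per class were compared as shares of all UMIs of a class (CPM), with no test. Of the genes called higher in bulk and holding enough UMIs, 380 of 389 (97.7%) were higher in both 10x libraries, beside 51.2% of all 10475 genes. Of those called lower in bulk, 753 of 840 (89.6%) were lower in both, beside 26.1%. All 11 of the largest bulk rises with 10x values, gate genes left out, were higher in both libraries, and all 15 of the largest falls were lower.

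Some genes stood out in the 10x cells without a bulk call. Cd3g was at 413.0 CPM (exact Poisson 95% interval 401 to 425) and 517 CPM (505 to 529) in Bcl11b and Il2ra cells and at 2.23 CPM (1.07 to 4.11) and 2.69 CPM (1.39 to 4.70) in Flt3 cells, where it rests on 10 and 12 UMIs. These intervals cover counting error only. Cd3d was at 224.9 and 259 CPM in Bcl11b and Il2ra cells and at 2.68 and 2.69 CPM in Flt3 cells. Cd3e was at 155.998 and 159.9 CPM in Bcl11b and Il2ra cells and at 0.894 and 0.672 CPM in Flt3 cells. The Flt3 cells held few CD3 transcripts, while the first-series Flt3+ ETP library held them within or above the Bcl11b+ DN2a range, and which cells carried them there was not tested. Lef1, a partner of TCF1, had 385 and 458 UMIs in Bcl11b and Il2ra cells and 2 UMIs per library in Flt3 cells. In bulk it was at 1.27, 0.562 and 0.958 FPKM in Bcl11b+ DN2a and at 2.61 and 0.654 FPKM in Flt3+ ETP. Notch3 was at 23.2 and 21.5 CPM in Bcl11b and Il2ra cells, against 0.67 and 0.896 CPM in Flt3 cells.

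Other genes differed less in the 10x cells than in bulk. Ccr9 was at 18.2 and 16.9 CPM in Bcl11b and Il2ra cells and at 23.01 and 41.7 CPM in Flt3 cells. Dntt was at 354 and 400.0 CPM in Bcl11b and Il2ra cells and at 365 and 469 CPM in Flt3 cells. Ccr9 was lower in the Bcl11b and Il2ra cells of each library. For Dntt the direction depended on depth in library 1, with a log2 difference of -0.04 before thinning and 0.38 after it (Bcl11b and Il2ra cells minus Flt3 cells). In library 2 Dntt was lower both before (-0.23) and after thinning (-0.17). Cpa3 was higher, at 278 and 252 CPM in Bcl11b and Il2ra cells and at 37.5 and 32.7 CPM in Flt3 cells. Hbb-bt was at 697 and 361 CPM in Bcl11b and Il2ra cells and at 110.2 and 84.2 CPM in Flt3 cells, while Hba-a1 had at most 1 UMI in any class. When cells were thinned to 4000 UMIs before the classes were chosen, the difference averaged over both libraries changed its sign for 10 of the named genes, and that of at least 1 library changed its sign for 23. In 6 of these the difference was over 0.2 on the log2 scale both before and after thinning.

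**Figure D5:**
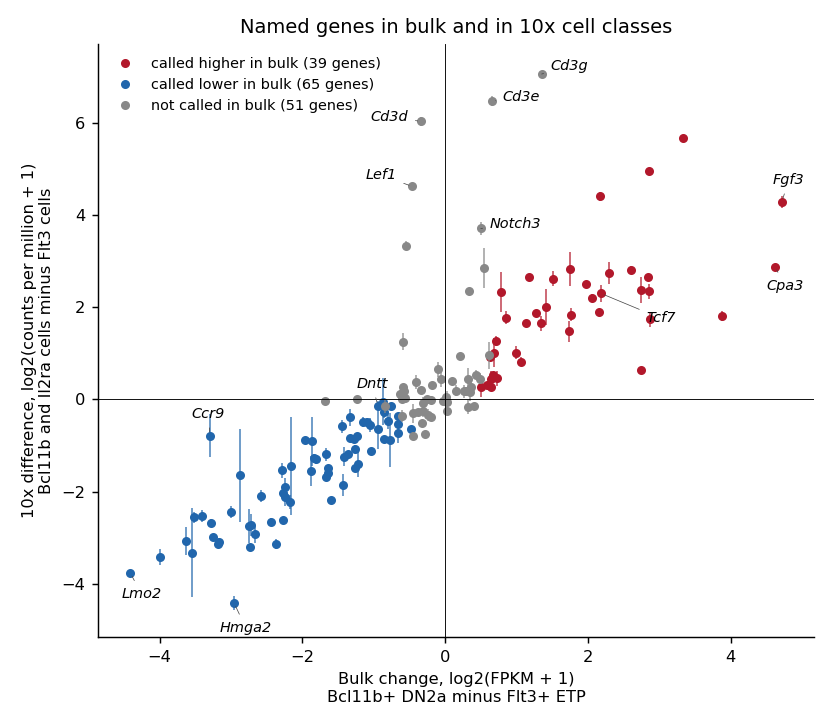
Bulk change on the log2(FPKM + 1) scale (x axis, Bcl11b+ DN2a minus Flt3+ ETP) and 10x difference on the log2(CPM + 1) scale (y axis, Bcl11b and Il2ra cells minus Flt3 cells) for the named genes with 10x values, leaving out Flt3, Il2ra and Bcl11b, with points at the mean and vertical lines between both 10x libraries. Genes called higher in bulk (red) lie above 0, genes called lower (blue) mostly below, and the CD3 genes, Lef1 and Notch3 (grey) lie high without a bulk call.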

How the data were processed

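Per the submitters' processing notes, bulk reads were aligned to mm10 with STAR 2.4.0, with RSEM 1.2.25, HOMER and edgeR 3.6.8 also named, and 10x reads were processed with Cell Ranger 2.0. The deposited bulk values are FPKM per RefSeq gene model, per the file headers, and the deposited 10x matrices hold UMI counts. Bulk values were tested as log2(FPKM + 1) with limma 3.58.1 (R 4.3.3, variance trend), and the fit held all 12 libraries, with a term for population and one for kit. The test covered 12112 of 24506 genes, those over 1 FPKM in 2 or more libraries. A gene under 1 FPKM in each Bcl11b+ DN2a library could pass through other libraries and could then hardly be called higher. Falls of this kind include Hmga2, Meis1, Gata2, Ccr9, Csf1r, Csf2rb, Il18r1, Klrd1 and Cd4. Rises of the reverse kind, under 1 FPKM in each Flt3+ ETP library, include Itga2b, Pou2af1 and Zbtb16. A pseudocount of 1 understates changes of low genes. Whole reads were recovered from FPKM and the gene lengths that the authors deposited, with at least 99.99% of checked values whole within 0.1 read, and were used for edgeR 4.0.16 and DESeq2 1.42.0 as alternatives.

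The genes named are the 15 largest rises and the 15 largest falls that were called, had a mean log2 level of 3 or more in the compared libraries, moved alike in both sets and are no unnamed predicted genes, besides the gate genes, all listed regulators and up to 6 genes of each other list by smallest p. The members and gene lists were chosen with earlier results of these data known. Only 10x cells with 1000 genes or more and less than 10% of UMIs from mitochondria were used, no doublet caller was run, and genes with at least 20 UMIs over the classes were counted. A gain or loss of motifs over called genes was not read, because RefSeq promoters matched 78.2% of the genes tested, which makes that check void. The limma and edgeR fits were also run on simulated data with independent errors. Those data lack differences between library-number series, so they cannot show how the fits behave where series differ. Coordinates are 1-based on mm10. Figures were drawn with matplotlib 3.10.9 in Python 3.11.15.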

Additional observations from a re-analysis of the deposited data

How the results depend on the processing

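The share of tested genes that were called was 11.3%. It was 10.2% after quantile normalization, 11.8% with a pseudocount of 0.1, 6.71% with no filter on low values (1327 genes), 11.5% with the filter over the compared libraries and 13.3% with edgeR on recovered reads. It was 1.87% with no kit term, 4.52% with NEBNext libraries alone (547 genes), 6.37% with the compared populations alone (771 genes) and 18.9% with DESeq2 (2285 genes). Leaving out 1 compared library gave 5.58% to 10.5% (676 to 1271 genes). With the library-number series as a replicate block in place of the kit it was 15.7%, or 1903 genes, which kept all 1370, and 21.5% (2605 genes) with the same block in edgeR, an alternative chosen after seeing the data. Only 2 series hold both populations, and the numbers were not taken as pairs. Deviations of libraries of the same series, with population and kit removed, correlated by 0.0514 and -0.623. These values cannot show whether the libraries are pairs, because the fit makes the deviations of the 2 Flt3+ ETP libraries mirror each other (correlation of -1). Of the called genes named by the rule, 38 kept their call under every alternative, 71 lost it under at least 1 and none reversed. Calls were lost for 63 with no kit term, Bcl11b and Tcf7 among them (adjusted p = 0.138 and 0.0724), for 40 with NEBNext libraries alone, for 30 without replicate 1 and 20 without replicate 2 of Flt3+ ETP, and for 15 without replicate 3 of Bcl11b+ DN2a. The causes were not tested. Motif shares with another window were not run, because that check was void. With 3 against 2 libraries, changes that were not called are not shown to be absent.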
